A study of Homo sapiens with 38 samples.

Results

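Human embryonic stem cells of the H9 line, an established wild-type line, were compared before differentiation and after 4 days of neural induction with the highest dose of a WNT activator. The comparison used 4 of the 38 libraries of the series, chosen by their labels: 2 of cells cultured to day 4 with 4.0 uM CT and 2 of stem cells at day 0. CT is the WNT activator of the study, and the labels leave its name unexpanded. A further 2 libraries of day 4 cells at a CT dose of 0.0 uM, called untreated here, served as a second reference for the direct contrast of both day 4 cultures. Levels alone, with no test, are given for the other CT doses at day 4, for day 8 cells with 4.0 uM CT and for day 4 cells with 4.0 uM CT plus 1.0 uM retinoic acid, each group with 2 libraries. The labels give the genotype of all cells as wild type and do not give the neural induction medium that the day 4 cultures share. The labels call the day 4 cells neural progenitor cells, and the study assigned the CT doses between 0.4 and 4.0 uM to diencephalic through rhombencephalic fates. RNA selected for poly(A) was sequenced in paired ends from whole cultures, so fewer cells of a type and less RNA per cell cannot be told apart. Each group has 2 libraries that the study calls biological replicates. The labels do not say whether they came from separate differentiations. The p-values measure the spread between libraries of the same group, estimated over all 19 groups, and that spread may be technical.

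Stem cells are held in the pluripotent state by a small circuit of transcription factors around POU5F1 and NANOG, and they grow as an epithelium sealed by E-cadherin. In the embryo, WNT and FGF signals at the caudal end maintain axial progenitors, bipotent cells that express T together with SOX2 and that feed the spinal cord and the paraxial mesoderm. CDX factors act downstream of WNT there and open the HOX clusters, whose genes give each level of the trunk its identity, while OTX2 marks the head end.

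Values are in TPM, a transcript level corrected for length and scaled to the same total in every library. Differences are taken after log2(TPM + 1), so those of weakly expressed genes come out too small, and are given with the standard error (SE) and the limma p adjusted over all 28221 genes tested. A gene was called when the adjusted p was under 0.05 and the log2 difference was at least 1 in size. Between CT4.0 day 4 cells and stem cells, 3996 genes were called (14.2% of those tested), of which 1329 (4.71%) were higher and 2667 (9.45%) were lower in CT4.0 cells. The median log2 difference over all genes tested was 0, and the libraries of both groups did not overlap in 55% of genes. A log2 difference of at least 5 was reached by 46 called genes that were higher and by 62 that were lower. Ribosomal protein genes took 24.0% and 22.6% of TPM in the CT4.0 libraries, against 20.3% and 18.2% in the stem cell libraries. Mitochondrial genes took 9.23% and 8.76% in CT4.0 cells, against 9.87% and 11.5% in stem cells. Across genes, the correlation of log2(TPM + 1) within the pair was 0.969 for CT4.0 cells and 0.963 for stem cells, and each of these 4 libraries was most like its own partner.

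The markers that define axial progenitors were all high at day 4 with CT4.0, and the pluripotency marker was low. T (chr6:166157656-166168700, hg38, minus strand), the T-box factor of the primitive streak and tail bud, had 31.3 and 41.3 TPM in CT4.0 cells, against 0.522 and 0.269 TPM in stem cells, a log2 difference of 4.73 (SE 0.17, adjusted p = 1.27e-15). NKX1-2 (chr10:124445239-124450184, minus strand), a homeobox factor of the caudal epiblast, had 142 and 171 TPM in CT4.0 cells, against 5.55 and 8.63 TPM in stem cells, a log2 difference of 4.30 (SE 0.23, adjusted p = 7.85e-13). CDX2 (chr13:27962137-27971139, minus strand), the caudal homeobox factor, had 164 and 193 TPM in CT4.0 cells and 0.0173 and 0.0523 TPM in stem cells, a log2 difference of 7.44 (SE 0.20, adjusted p = 7.51e-18). In each of these 3 genes both CT4.0 libraries lay far above both stem cell libraries, and NKX1-2 alone among them had a clear stem cell level. FGF17 (chr8:22042398-22048809, plus strand), an FGF ligand, had 239 and 288 TPM in CT4.0 cells and 0.695 and 0.264 TPM in stem cells, a log2 difference of 7.49 (SE 0.21, adjusted p = 9.27e-18). HOXB9 (chr17:48621159-48626356, minus strand), a trunk HOX gene, had 340 and 354 TPM in CT4.0 cells and 0.0578 and 0.0582 TPM in stem cells, a log2 difference of 8.36 (SE 0.51, adjusted p = 9.17e-12). POU5F1 (chr6:31164337-31180731, minus strand), which encodes OCT4, fell to 25.8 and 18.4 TPM in CT4.0 cells, against 2514 and 2399 TPM in stem cells, a log2 difference of -6.75 (SE 0.31, adjusted p = 5.84e-14). The groups did not overlap in any of the 6 markers, as was the case in 55% of all genes tested. POU5F1 was still above 18 TPM in both CT4.0 libraries.

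**Figure D1:**
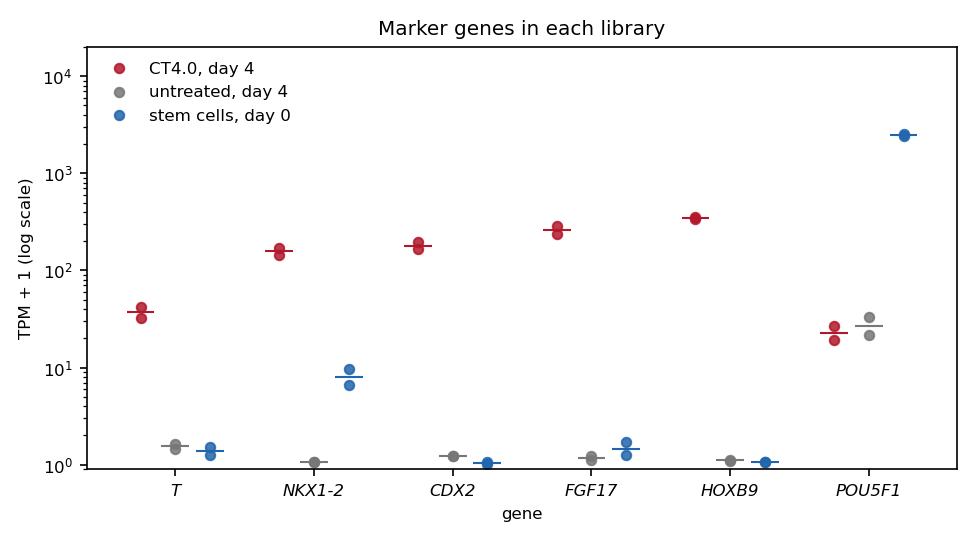
TPM + 1 (log axis) of the 6 marker genes in each library of CT4.0 day 4 cells, untreated day 4 cells and stem cells (points, 2 libraries a group; lines, mean on the log scale). T, NKX1-2, CDX2, FGF17 and HOXB9 lie between 31.3 and 354 TPM in CT4.0 cells and at or below 8.63 TPM in stem cells, and POU5F1 is at 25.8 and 18.4 TPM in CT4.0 cells and at 2514 and 2399 TPM in stem cells.

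The 5 caudal markers appeared at the upper doses of the day 4 series. T stayed at or below 0.761 TPM at 0.0 to 2.0 uM CT, was 10.7 and 15.3 TPM at 3.0 uM and 31.3 and 41.3 TPM at 4.0 uM. CDX2 was 0.59 and 1.41 TPM at 2.0 uM, 150 and 174 TPM at 3.0 uM and 164 and 193 TPM at 4.0 uM. HOXB9 was 0.444 and 5.67 TPM at 2.0 uM, 573 and 427 TPM at 3.0 uM and 340 and 354 TPM at 4.0 uM. T did not overlap between 3.0 and 4.0 uM in its libraries, CDX2 overlapped in range, and HOXB9 was lower at 4.0 uM than at 3.0 uM in every library. NKX1-2 had 107 and 166 TPM at 3.0 uM, and FGF17 had 133 and 125 TPM there. By group means, the CT4.0 cells were closest to day 4 cells at 3.0 uM, with a correlation across genes of 0.982, beside 0.910 with stem cells. At day 8 with CT4.0, T was 21.3 and 23.2 TPM and CDX2 122 and 140 TPM, while POU5F1 was 2.52 and 1.05 TPM. With retinoic acid added to CT4.0, T was 0.272 and 0.225 TPM and CDX2 7.72 and 8.09 TPM at day 4.

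**Figure D2:**
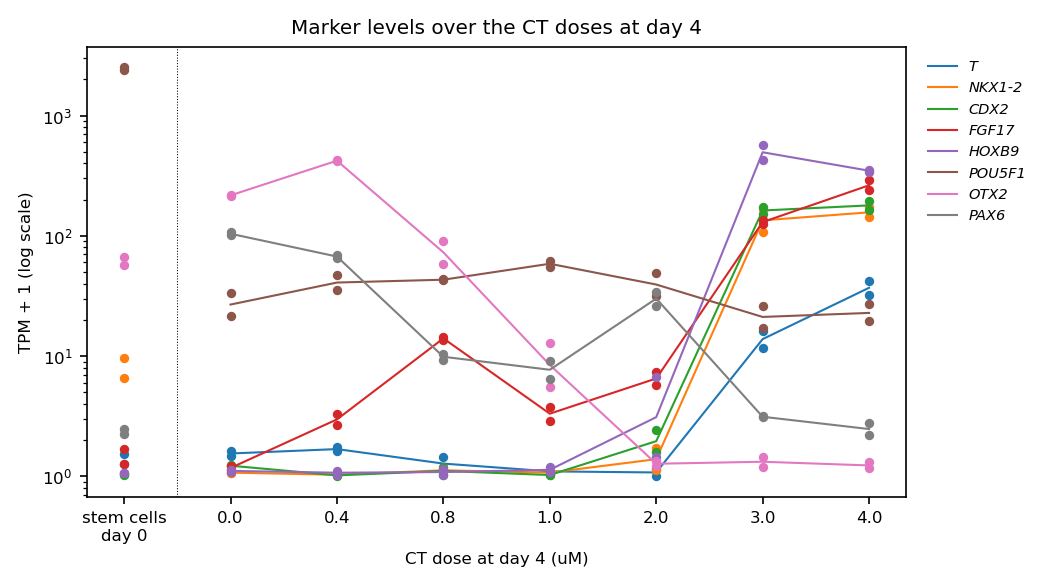
TPM + 1 (log axis) of the 6 markers with OTX2 and PAX6 in stem cells and over the CT doses at day 4 (points, libraries; lines, mean of 2 libraries on the log scale). T, NKX1-2, CDX2, FGF17 and HOXB9 are higher at 3.0 and 4.0 uM than at 2.0 uM, with CDX2 at 164 and 193 TPM at 4.0 uM, and OTX2 is below 0.5 TPM from 2.0 uM on.

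Exit from pluripotency was broad. Of the 24 genes in the core pluripotency list, 20 were lower, 0 were higher and 4 were not called, beside 9.45% lower among all genes. The median log2 difference of the list was -2.98 beside 0 over all genes. The list summed to 1264 and 1306 TPM in CT4.0 cells and to 8047 and 7775 TPM in stem cells. NANOG, the homeobox factor of the circuit, had 0.0324 and 0.118 TPM in CT4.0 cells and 20.9 and 31.2 TPM in stem cells, a log2 difference of -4.63 (SE 0.15, adjusted p = 1.45e-16). TDGF1, the NODAL co-receptor CRIPTO, had 0 and 0.133 TPM in CT4.0 cells and 250 and 275 TPM in stem cells, the largest fall among protein-coding genes at -7.95 (SE 0.17, adjusted p = 1.87e-19). ESRG, a long noncoding RNA of human stem cells, had 1.29 and 0.746 TPM in CT4.0 cells and 958 and 793 TPM in stem cells, a log2 difference of -8.77 (SE 0.16, adjusted p = 1.57e-20). All 3 were near 0 in both CT4.0 libraries and high in both stem cell libraries. The zinc finger gene ZFP42 fell by 5.78 (SE 0.20, adjusted p = 4.01e-16) and PRDM14, a chromatin regulator, fell by 4.80 (SE 0.23, adjusted p = 9.73e-14) on the log2 scale. A smaller fall was seen in DPPA4, at 83.0 and 79.8 TPM in CT4.0 cells and 429 and 449 TPM in stem cells. DNMT3B, a de novo DNA methyltransferase, had 63.1 and 72.4 TPM in CT4.0 cells and 292 and 375 TPM in stem cells, a log2 difference of -2.28 (SE 0.11, adjusted p = 1.45e-13).

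The 4 genes of that list that were not called were SOX2, LIN28A, SALL4 and KLF4. SOX2, a factor shared by pluripotent, neural and axial progenitor cells, had 200 and 188 TPM in CT4.0 cells and 202 and 170 TPM in stem cells, a log2 difference of 0.07 (SE 0.10, adjusted p = 0.722), and its groups overlapped. LIN28A, an RNA-binding protein that blocks let-7, had 584 and 574 TPM in CT4.0 cells and 687 and 660 TPM in stem cells. The 12 genes of the list of LIN28 and let-7 target RNA regulators held 0 calls in either direction, against 14.2% of all genes, and without stem cell library 2 it held 1 higher, HMGA2 (log2 difference 1.03), and 1 lower, IGF2BP3 (-1.07). Among the 12 largest falls of protein-coding genes were also SCGB3A2, a secretoglobin, at 3.75 and 3.40 TPM in CT4.0 cells and 990 and 846 TPM in stem cells, and RARRES2, the chemoattractant chemerin, at 2.27 and 3.27 TPM against 415 and 406 TPM. IDO1, a tryptophan-degrading enzyme, was listed at 0 in both CT4.0 libraries and had 113 and 98.4 TPM in stem cells. MT1G, a metallothionein, was listed at 0 in both CT4.0 libraries and had 301 and 92.7 TPM in stem cells, whose libraries differed by more than 3-fold.

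A microRNA cluster that is a hallmark of pluripotent cells was present as hairpin genes in the table. Poly(A) sequencing does not measure mature microRNAs, so these levels describe RNA over the hairpins only, and no difference was tested. The hairpin genes are 68 to 73 bases long, so a few reads give a large TPM, and the number of reads is unknown. The mature forms from RefSeq (GRCh38.p14) are shown because the 302 members share the seed in capitals, bases 2 to 8, whereas miR-367 of the same cluster and miR-196a of the HOXB cluster each have another.
miR-302a-3p: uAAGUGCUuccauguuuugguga
miR-302b-3p: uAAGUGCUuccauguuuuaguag
miR-302c-3p: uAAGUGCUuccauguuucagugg
miR-302d-3p: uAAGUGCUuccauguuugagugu
miR-367-3p: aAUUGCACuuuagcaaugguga
miR-196a-5p: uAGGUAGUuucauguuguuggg
MIR367 was listed at 0 in both CT4.0 libraries and had 161 and 162 TPM in stem cells and 16.8 and 24.6 TPM in untreated cells. MIR302C and MIR302D were likewise listed at 0 in both CT4.0 libraries, against 117 and 64.1 TPM and 41.6 and 66.9 TPM in stem cells. MIR302A had 0 and 5.93 TPM in CT4.0 cells and 94.4 and 83.6 TPM in stem cells. MIR302B was above 0 in 1 stem cell library alone, at 13.4 TPM. The opposite pattern was seen in MIR196A1, whose mature form lies at chr17:48632532-48632553 on the minus strand within the HOXB7 gene: it had 146 and 213 TPM in CT4.0 cells and was listed at 0 in stem cells and in untreated cells. Reads of the host transcript and of the hairpin cannot be told apart here, and MIR196A1 was high where the HOXB genes were high.

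The epithelial programme was lower. Of 19 tested genes of the epithelial junction list, 18 were lower and 1 was not called in CT4.0 cells, beside 9.45% lower among all genes. The median log2 difference was -3.85. CDH1, which encodes E-cadherin, had 0.0922 and 0.205 TPM in CT4.0 cells and 98.0 and 94.0 TPM in stem cells, a log2 difference of -6.40 (SE 0.27, adjusted p = 1.44e-14). CLDN7, a tight junction claudin, had 0.116 and 0.0784 TPM in CT4.0 cells and 97.8 and 82.0 TPM in stem cells, a log2 difference of -6.37 (SE 0.28, adjusted p = 3.05e-14). ESRP1, a splicing factor of epithelia, had 0.709 and 0.421 TPM in CT4.0 cells and 82.7 and 89.3 TPM in stem cells, a log2 difference of -5.80 (SE 0.24, adjusted p = 9.64e-15). These 3 genes were below 1 TPM in both CT4.0 libraries and above 80 TPM in both stem cell libraries. GRHL2 and CRB3, an epithelial transcription factor and a polarity protein, were listed at 0 in both CT4.0 libraries and had 10.9 and 14.6 TPM and 21.1 and 23.3 TPM in stem cells. EPCAM, an epithelial adhesion molecule, kept 11.0 and 12.7 TPM in CT4.0 cells, against 151 and 159 TPM in stem cells. OCLN, a tight junction protein, was the gene not called, with 15.6 and 12.2 TPM in CT4.0 cells and 24.3 and 28.7 TPM in stem cells. It was called without CT4.0 library 1 (log2 difference -1.06) and without stem cell library 1 (-1.01).

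Genes of the mesenchymal and N-cadherin list went the other way in 8 of 16 cases, with 1 lower and a median log2 difference of 1.29. Among all genes 4.71% were higher and 9.45% lower. The lower count of the list was 2 without CT4.0 library 2 or stem cell library 2, when TWIST2 was called as well (-1.21 and -1.27). CDH2, which encodes N-cadherin, had 119 and 119 TPM in CT4.0 cells and 19.9 and 22.1 TPM in stem cells, a log2 difference of 2.45 (SE 0.06, adjusted p = 2.54e-18). ZEB2, a repressor of E-cadherin, had 60.1 and 50.2 TPM in CT4.0 cells and 0.990 and 0.946 TPM in stem cells, a log2 difference of 4.83 (SE 0.15, adjusted p = 6.75e-17). ZEB1, its relative, had 13.8 and 13.4 TPM in CT4.0 cells and 0.488 and 0.492 TPM in stem cells, a log2 difference of 3.30 (SE 0.24, adjusted p = 1.66e-10). Both libraries of each group agreed closely in CDH2 and ZEB1. VIM, the intermediate filament vimentin, had 920 and 780 TPM in CT4.0 cells and 211 and 147 TPM in stem cells, and MMP2, a matrix protease, had 146 and 161 TPM against 23.8 and 25.7 TPM. SNAI2, a zinc finger repressor, had 7.73 and 6.41 TPM in CT4.0 cells and 0.368 and 0.406 TPM in stem cells. COL1A1, a fibrillar collagen, was the gene that fell, to 7.15 and 8.05 TPM in CT4.0 cells, against 32.3 and 21.6 TPM in stem cells. FN1, fibronectin, was not called, at 37.5 and 47.7 TPM in CT4.0 cells and 42.1 and 38.6 TPM in stem cells. In untreated cells CDH1 was 0.263 and 0.507 TPM and CDH2 191 and 192 TPM, so both day 4 cultures had little CDH1.

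Of 18 tested genes in the axial progenitor list, 14 were higher, 1 was lower and 3 were not called, beside 4.71% higher and 9.45% lower among all genes. The median log2 difference was 2.77. In untreated cells 6 genes of the list were higher and 3 lower than in stem cells. The direct contrast of CT4.0 with untreated cells gave 13 higher and 2 lower, beside 3.31% and 4.99% of all genes. The list includes 4 of the markers above (T, NKX1-2, CDX2 and FGF17), and 3 of its 21 genes were too low to test. SP5 (chr2:170715351-170718078, plus strand), a zinc finger target of WNT, had 224 and 228 TPM in CT4.0 cells and 4.42 and 0.0710 TPM in stem cells, a log2 difference of 6.56 (SE 0.52, adjusted p = 8.66e-10). The stem cell libraries differed widely in SP5, and it was not called when both groups were fitted alone (adjusted p = 0.0616). FGF8, an FGF ligand of the caudal epiblast, had 173 and 229 TPM in CT4.0 cells and 0.654 and 0.665 TPM in stem cells, a log2 difference of 6.92 (SE 0.27, adjusted p = 3.27e-15). FGF8 also rose in untreated cells, to 42.2 and 40.9 TPM, and was higher in CT4.0 than in untreated cells by 2.24 (SE 0.27) on the log2 scale. It is counted in the midbrain, isthmus and hindbrain list as well. CDX1 had 10.5 and 22.0 TPM in CT4.0 cells and was listed at 0 in both stem cell libraries. WNT5B, a WNT ligand, had 125 and 168 TPM in CT4.0 cells and 3.00 and 1.33 TPM in stem cells, a log2 difference of 5.58 (SE 0.22, adjusted p = 6.90e-15). HES3, a HES repressor, had 247 and 222 TPM in CT4.0 cells and 44.7 and 28.7 TPM in stem cells, and SALL1, a zinc finger factor, had 194 and 221 TPM against 44.3 and 36.5 TPM. Both CT4.0 libraries were above both stem cell libraries in FGF8, WNT5B, HES3 and SALL1. The gene that fell was CYP26A1, which breaks down retinoic acid: 0.0531 and 0.226 TPM in CT4.0 cells and 22.3 and 22.6 TPM in stem cells, a log2 difference of -4.37 (SE 0.33, adjusted p = 4.42e-10). CYP26A1 was not low at every dose, since it had 259 and 314 TPM at 1.0 uM CT, 143 and 117 TPM at 2.0 uM and 0 and 0.113 TPM at 3.0 uM. CDX4, the third CDX gene, had 1.06 and 4.31 TPM in CT4.0 cells and 1.79 and 2.51 TPM in stem cells, and WNT3A was at or below 0.359 TPM in all 4 libraries.

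Promoter windows of 300 bases (250 before and 50 after the transcript start, RefSeq, GRCh38.p14) were searched for CTTTGA and its reverse complement TCAAAG, the core that TCF and LEF factors bind, on both strands. Of 15 axial progenitor genes with a window, 5 held a match (33.3%): CDX2, CDX4, SP5, SP8 and TBXT, which is T. Of 11 WNT target genes with a window, 2 held a match (18.2%), DKK1 and SP5. A match in at least 1 window was held by 15.5% of all 27305 genes with RefSeq windows. The windows of SP5, T and CDX2 are shown because these genes were among the strongly higher ones, with matches in capitals.
SP5: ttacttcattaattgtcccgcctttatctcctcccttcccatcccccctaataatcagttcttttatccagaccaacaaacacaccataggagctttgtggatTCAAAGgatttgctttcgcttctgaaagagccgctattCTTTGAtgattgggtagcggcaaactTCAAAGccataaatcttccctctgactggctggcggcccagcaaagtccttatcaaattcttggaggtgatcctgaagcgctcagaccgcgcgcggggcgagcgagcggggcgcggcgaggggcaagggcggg
T: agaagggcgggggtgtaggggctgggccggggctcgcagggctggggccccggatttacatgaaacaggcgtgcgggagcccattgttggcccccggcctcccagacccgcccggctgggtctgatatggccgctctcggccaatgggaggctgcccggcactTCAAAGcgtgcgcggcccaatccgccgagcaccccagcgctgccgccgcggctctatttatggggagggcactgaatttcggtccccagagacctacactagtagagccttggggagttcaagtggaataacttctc
CDX2: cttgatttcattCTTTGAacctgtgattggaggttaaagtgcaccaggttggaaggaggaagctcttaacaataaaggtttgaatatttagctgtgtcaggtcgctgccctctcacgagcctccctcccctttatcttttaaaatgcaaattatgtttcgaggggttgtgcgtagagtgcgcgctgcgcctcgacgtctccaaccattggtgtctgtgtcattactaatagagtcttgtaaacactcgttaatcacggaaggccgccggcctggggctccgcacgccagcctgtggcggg
The SP5 window (chr2:170715087-170715386, plus strand) held 3 matches, 147, 109 and 83 bases before the start. The T window (chr6:166167802-166168101, minus strand), 1 of 2 windows of that gene, held 1 match 87 bases before the start. The CDX2 window (chr13:27969266-27969565, minus strand) held 1 match 238 bases before the start. A match describes the letters of a window and is not a measured binding site.

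HOX genes were called higher in all 4 clusters. No HOX gene exceeded 1.16 TPM in a stem cell library, so a lower call was out of reach. Of the 39 HOX genes of the annotation, 28 were tested and 25 of these were higher: 9 of 9 in HOXA, 9 of 9 in HOXB, 5 of 6 in HOXC and 2 of 4 in HOXD. Among all genes tested, 4.71% were higher. The tested HOX genes passed the filter through libraries other than those of stem cells, so these shares depend in part on the filter. Median log2 differences were 4.12, 6.29, 5.28 and 0.79, in the order HOXA, HOXB, HOXC and HOXD, and they include fitted values of genes listed at 0 in stem cells, which depend on the pseudocount. HOXB3 (paralogue group 3) was the highest, with 693 and 779 TPM in CT4.0 cells and 1.16 and 0.113 TPM in stem cells, a log2 difference of 8.89 (SE 0.30, adjusted p = 3.91e-16). HOXB6 had 174 and 257 TPM in CT4.0 cells and 0.451 and 0 TPM in stem cells, a log2 difference of 7.46 (SE 0.35, adjusted p = 7.85e-14). HOXC4 had 254 and 307 TPM and HOXA7 225 and 338 TPM in CT4.0 cells, and both were listed at 0 in both stem cell libraries. The summed levels were 1543 and 1792 TPM for HOXB, 449 and 681 TPM for HOXA, 385 and 532 TPM for HOXC and 12.2 and 24.1 TPM for HOXD in CT4.0 cells, against at most 2.49 TPM for any cluster in stem cells. HOXA10 was the most posterior gene called, at 2.18 and 1.31 TPM in CT4.0 cells and 0 in stem cells, and groups 11 to 13 were below 0.2 TPM in CT4.0 cells in every cluster. HOXD4 had 10.2 and 22.5 TPM in CT4.0 cells and 0.0528 and 0 TPM in stem cells, while HOXD1 and HOXD8 were below 0.5 TPM in both CT4.0 libraries and were called only with a pseudocount of 0.1. Of the 39 HOX genes, 24 overlap another gene on the same strand and 25 overlap one on the opposite strand, so their division of reads is uncertain.

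**Figure D3:**
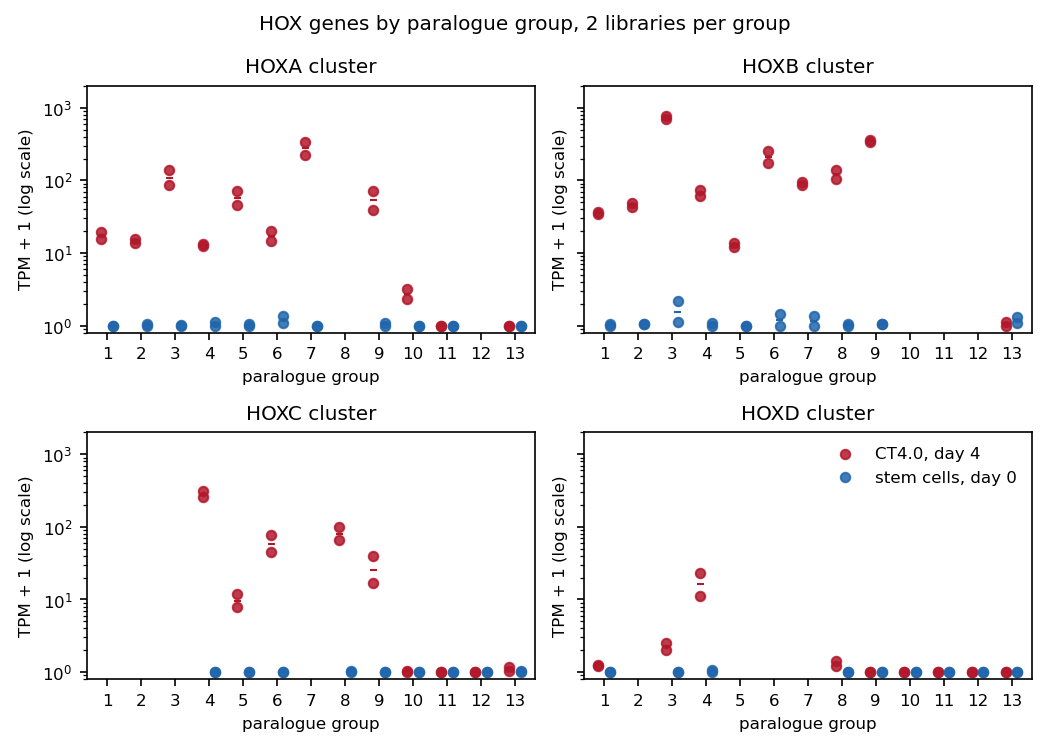
TPM + 1 (log axis) of the 39 HOX genes by paralogue group in the 2 libraries of CT4.0 day 4 cells and the 2 of stem cells (points; lines, mean on the log scale). In CT4.0 cells HOXB3 reaches 693 and 779 TPM and groups 11 to 13 stay near 0, whereas all stem cell points lie at or below 1.16 TPM.

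Proteins of the PBX and MEIS families bind DNA with HOX proteins, and their genes moved in both directions. PBX3 had 2.19 and 0.769 TPM in CT4.0 cells and 23.4 and 28.5 TPM in stem cells, a log2 difference of -3.50 (SE 0.34, adjusted p = 2.13e-08). MEIS2 had 6.63 and 3.11 TPM in CT4.0 cells and 0.320 and 0.485 TPM in stem cells, a log2 difference of 2.00 (SE 0.35, adjusted p = 9.65e-05). MEIS1 had 1.36 and 2.61 TPM in CT4.0 cells and 0.573 and 0.281 TPM in stem cells, and its call was lost without CT4.0 library 2 (log2 difference 0.73) and without stem cell library 2 (0.89). PBX3 was lower in both CT4.0 libraries than in either stem cell library. Against untreated cells, 5 of the 9 cofactor genes were lower and 0 were higher, beside 4.99% and 3.31% of all genes.

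WNT ligand genes in CT4.0 cells were mostly low, and 14 of 19 listed were below 1 TPM in both libraries. Of 14 tested, 4 were higher (WNT5B, WNT5A, WNT8A and WNT3) and 1, WNT4, was lower. Beside this list and the receptors below, 4.71% of all genes were higher and 9.45% lower. WNT8A had 5.77 and 7.05 TPM in CT4.0 cells and 0.414 and 0.231 TPM in stem cells, a log2 difference of 2.48 (SE 0.21, adjusted p = 1.91e-09). Of 17 Frizzled receptors and co-receptors, 5 were higher and 4 were lower. FZD10 had 79.6 and 96.4 TPM in CT4.0 cells and 0.261 and 0.355 TPM in stem cells, a log2 difference of 6.08 (SE 0.18, adjusted p = 2.60e-17). ROR2, a WNT5A receptor, had 30.8 and 35.4 TPM in CT4.0 cells and 2.09 and 1.90 TPM in stem cells, a log2 difference of 3.51 (SE 0.13, adjusted p = 1.17e-15). FZD5 ran the other way, at 0.331 and 0.453 TPM in CT4.0 cells and 19.4 and 22.1 TPM in stem cells, a log2 difference of -3.96 (SE 0.16, adjusted p = 6.09e-15), and FZD7 had 29.1 and 24.2 TPM against 131 and 140 TPM. In none of these 4 receptors did the groups overlap, as was the case in 55% of all genes tested.

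Known targets and feedback genes of WNT signalling were called in 12 of 18 cases, 8 higher and 4 lower, beside 14.2% called among all genes. LEF1, a TCF family factor, had 107 and 118 TPM in CT4.0 cells and 0.444 and 0.522 TPM in stem cells, a log2 difference of 6.26 (SE 0.15, adjusted p = 7.85e-19). NKD1, a feedback inhibitor, had 85.8 and 85.3 TPM in CT4.0 cells and 3.99 and 1.61 TPM in stem cells, a log2 difference of 4.58 (SE 0.24, adjusted p = 5.80e-13). AXIN2, the scaffold most often read as a WNT target, had 103 and 112 TPM in CT4.0 cells and 16.8 and 12.3 TPM in stem cells, a log2 difference of 2.81 (SE 0.24, adjusted p = 2.63e-09). Each of these rose in both CT4.0 libraries. The 4 that fell were TCF7L1, TCF7L2, MYC and BAMBI. TCF7L1, a TCF factor known as a repressor in stem cells, had 15.8 and 16.0 TPM in CT4.0 cells and 65.8 and 82.8 TPM in stem cells. MYC had 1.86 and 1.89 TPM in CT4.0 cells and 25.1 and 28.2 TPM in stem cells, a log2 difference of -3.26 (SE 0.21, adjusted p = 2.75e-11), although it is listed as a WNT target. Of 11 secreted antagonists, 6 were lower and 1 was higher. SFRP1 had 39.7 and 33.9 TPM in CT4.0 cells and 391 and 353 TPM in stem cells, a log2 difference of -3.31 (SE 0.10, adjusted p = 5.06e-17). The gene that rose was NOTUM, an enzyme that removes lipid from WNT, at 4.31 and 2.73 TPM in CT4.0 cells and 0.348 and 0.167 TPM in stem cells.

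In the FGF list, 3 ligands were higher and FGF2 with 3 receptors lower, of 17 tested. Beside this list and the feedback list below, 4.71% of all genes were higher and 9.45% lower. FGF17 and FGF8 are given above, and FGF9 had 11.6 and 13.9 TPM in CT4.0 cells and 0.0467 and 0.0456 TPM in stem cells, a log2 difference of 3.71 (SE 0.39, adjusted p = 6.93e-08). FGF2, the ligand of stem cell culture, had 13.5 and 15.4 TPM in CT4.0 cells and 42.1 and 40.6 TPM in stem cells. FGFR4 had 20.8 and 20.7 TPM in CT4.0 cells and 65.7 and 80.0 TPM in stem cells, a log2 difference of -1.76 (SE 0.18, adjusted p = 3.57e-08). FGFR1, the most abundant receptor, had 438 and 435 TPM in CT4.0 cells and 523 and 447 TPM in stem cells and was not called. Of 19 genes of FGF and ERK feedback, 6 were higher and 4 lower, and the lower count was 2 without stem cell library 2. IL17RD, a membrane inhibitor of FGF signalling, had 97.3 and 111 TPM in CT4.0 cells and 12.3 and 18.6 TPM in stem cells, a log2 difference of 2.70 (SE 0.28, adjusted p = 5.49e-08). SPRY2, an intracellular inhibitor, had 101 and 111 TPM in CT4.0 cells and 18.9 and 23.6 TPM in stem cells, a log2 difference of 2.27 (SE 0.17, adjusted p = 2.60e-10). SPRED2 and ETV5 also rose, by 1.52 and 1.66 on the log2 scale. DUSP5 and ETV4 were among the 4 lower genes, at log2 differences of -1.16 and -1.05. Both lost their calls without stem cell library 2 (-0.73 and -0.84) and without CT4.0 library 1 (-0.93 and -0.91). DUSP6, an ERK phosphatase, had 242 and 231 TPM in CT4.0 cells and 71.9 and 124 TPM in stem cells, and its call was lost without stem cell library 1 (log2 difference 0.93).

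NODAL pathway genes fell in 7 of 16 cases and rose in 1, with a median log2 difference of -0.67. Beside this list and the BMP, retinoid and NOTCH lists, 4.71% of all genes were higher and 9.45% lower. FOXH1, a SMAD partner, had 5.35 and 6.10 TPM in CT4.0 cells and 68.6 and 67.0 TPM in stem cells, a log2 difference of -3.36 (SE 0.26, adjusted p = 5.11e-10). LEFTY2, a NODAL inhibitor, was listed at 0 in both CT4.0 libraries and had 2.32 and 6.24 TPM in stem cells. SMAD3 rose, to 25.7 and 28.3 TPM in CT4.0 cells, against 9.35 and 6.28 TPM in stem cells. Without stem cell library 2 the NODAL pathway list held 2 higher genes. Of 21 BMP genes, 7 were higher and 2 lower. MSX1, a BMP target, had 63.0 and 83.4 TPM in CT4.0 cells and 0.314 and 0.503 TPM in stem cells, a log2 difference of 5.71 (SE 0.37, adjusted p = 2.72e-11). The antagonists CHRD and NOG rose by 2.23 (SE 0.26) and 2.14 (SE 0.22) on the log2 scale, and the target ID1 fell to 20.9 and 29.9 TPM in CT4.0 cells, against 79.1 and 62.8 TPM in stem cells. Among retinoid genes, STRA6, a retinol importer, had 94.5 and 142 TPM in CT4.0 cells and 10.1 and 8.79 TPM in stem cells, a log2 difference of 3.49 (SE 0.20, adjusted p = 3.09e-12). CRABP2, a retinoic acid carrier, had 808 and 818 TPM in CT4.0 cells and 217 and 149 TPM in stem cells, a log2 difference of 2.17 (SE 0.13, adjusted p = 3.74e-12), whereas its relative CRABP1 had 22.6 and 18.3 TPM against 338 and 290 TPM, a log2 difference of -3.88 (SE 0.45, adjusted p = 2.87e-07). The 17 retinoid genes held 3 higher and 4 lower. ALDH1A2, which makes retinoic acid in paraxial mesoderm, stayed below 1 TPM in all 4 libraries. Of 21 NOTCH genes, 2 were higher and 1, HEY2, was lower, near the 14.2% called among all genes. HES7, an oscillating repressor of the presomitic mesoderm, had 13.0 and 18.8 TPM in CT4.0 cells and 1.71 and 1.04 TPM in stem cells, a log2 difference of 2.82 (SE 0.29, adjusted p = 6.50e-08). The other higher gene was the ligand DLL1, which lost its call without stem cell library 2 (log2 difference 0.49, adjusted p = 0.214).

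Untreated cells left the same stem cells by another route, and both comparisons with day 0 share the stem cell libraries. CT4.0 cells were therefore also set against untreated cells directly, a contrast in which 2341 genes were called (8.3% of those tested), 934 higher (3.31%) and 1407 lower (4.99%). With TMM scaling, which moves each library by a single factor, the same contrast gave 1076 higher and 1066 lower. Untreated cells against stem cells gave 4728 called genes (16.8%), 2120 higher (7.51%) and 2608 lower (9.24%). POU5F1 was 25.8 and 18.4 TPM in CT4.0 cells and 20.5 and 32.4 TPM in untreated cells and was not called between them (log2 difference -0.23, SE 0.31, adjusted p = 0.692). Of the 24 core pluripotency genes, 19 were lower in untreated cells than in stem cells, beside the 20 that were lower in CT4.0 cells. Directly compared, 6 of the 24 were lower and 1 higher in CT4.0 than in untreated cells (0 higher without untreated library 1), with a median of -0.46 beside -0.0567 over all genes. The list summed to 1264 and 1306 TPM in CT4.0 cells and to 2094 and 2129 TPM in untreated cells. The 6 lower genes were SOX2, PRDM14, DNMT3B, USP44, ESRG and KLF4, with SOX2 at 200 and 188 TPM in CT4.0 cells and 432 and 426 TPM in untreated cells, a log2 difference of -1.14 (SE 0.10, adjusted p = 8.74e-09). With TMM scaling SOX2 fell just short of a call, at -0.991 (SE 0.10). NKX1-2 was 142 and 171 TPM in CT4.0 cells and 0.0723 and 0.0702 TPM in untreated cells, a log2 difference of 7.19 (SE 0.23, adjusted p = 2.88e-16).

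Forebrain genes separated the routes. Beside the counts of this list, 4.71% of all genes were higher and 9.45% lower in CT4.0 cells than in stem cells. Against untreated cells these shares were 3.31% and 4.99%. Of 18 forebrain and anterior neural genes, 6 were lower and 0 higher in CT4.0 cells than in stem cells, with a median of -0.25. Against untreated cells 13 were lower and 0 higher, and the median was -3.95 beside -0.0567 over all genes. FEZF1, a forebrain zinc finger factor, was listed at 0 in both CT4.0 libraries and had 438 and 433 TPM in untreated cells and 53.6 and 47.8 TPM in stem cells. OTX2, the head homeobox factor, had 0.304 and 0.160 TPM in CT4.0 cells, 214 and 218 TPM in untreated cells and 65.8 and 55.7 TPM in stem cells. Its log2 difference was -7.46 (SE 0.27, adjusted p = 2.30e-15) from untreated cells and -5.64 (SE 0.27, adjusted p = 1.05e-13) from stem cells. RAX, an eye field factor, had 0.0200 and 0 TPM in CT4.0 cells and 104 and 120 TPM in untreated cells, and DLK1, a noncanonical NOTCH ligand, had 1.5 and 1.52 TPM against 529 and 608 TPM. These 4 genes were near 0 in CT4.0 cells, and OTX2 and FEZF1 were also below their stem cell level there.

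Pan-neural progenitor genes were called higher in 7 of 22 cases and lower in 2 in CT4.0 cells against stem cells, beside 4.71% and 9.45% of all genes. In untreated cells 18 were higher than in stem cells and 0 lower, beside 7.51% and 9.24% of all genes. The genes lower in CT4.0 cells than in stem cells were POU3F1 and SOX21. SOX21 lost its call without stem cell library 1 (log2 difference -0.93) and without CT4.0 library 2 (-0.90). Directly compared, 13 were lower and 1 higher in CT4.0 than in untreated cells, beside 4.99% and 3.31% of all genes. Part of these calls depended on scaling: with TMM scaling SOX2, MSI1, SOX9 and SOX11 lost theirs, at log2 differences of -0.991, -0.952, -0.980 and -0.865. PAX6, a neural plate factor, had 1.78 and 1.2 TPM in CT4.0 cells, 99.7 and 107 TPM in untreated cells and 1.23 and 1.49 TPM in stem cells. SOX1 had 0.294 and 0.0684 TPM in CT4.0 cells. POU3F2, a neural POU factor, rose to 10.2 and 9.39 TPM in CT4.0 cells, against 0.259 and 0.164 TPM in stem cells, a log2 difference of 3.16 (SE 0.13, adjusted p = 9.64e-15). PLAGL1, an imprinted zinc finger gene, had 47.5 and 55.2 TPM in CT4.0 cells and 1.2 and 2.11 TPM in stem cells, a log2 difference of 4.32 (SE 0.19, adjusted p = 4.38e-14). Of the genes that mark the neural progenitors named in the labels, SOX1 and PAX6 were therefore low in CT4.0 cells, while SOX2, CDH2 and ZEB2 were at or above 50.2 TPM in both libraries. Of 15 midbrain, isthmus and hindbrain genes, 5 were higher and 3 lower than in stem cells, beside the same 4.71% and 9.45% of all genes. Without stem cell library 1 the lower count was 1. GBX2, a hindbrain and caudal factor, had 45.4 and 46.7 TPM in CT4.0 cells and 0.245 and 0.320 TPM in stem cells, a log2 difference of 5.20 (SE 0.23, adjusted p = 2.92e-14). PAX2 had 8.71 and 11.7 TPM in CT4.0 cells and 0 and 0.243 TPM in stem cells, a log2 difference of 3.32 (SE 0.32, adjusted p = 2.27e-08). NKX6-1, a ventral neural tube factor, had 9.53 and 7.36 TPM in CT4.0 cells and 0.0253 and 0.0525 TPM in stem cells, a log2 difference of 3.18 (SE 0.40, adjusted p = 1.19e-06).

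Glycolysis and hypoxia genes also differed between the day 4 cultures. Of 22 genes, 1 was higher and 2 lower in CT4.0 cells than in stem cells, near the 14.2% called among all genes. In the direct contrast 12 were higher and 1 lower in CT4.0 than in untreated cells, beside 3.31% and 4.99% of all genes. Without stem cell library 1 a second gene, BNIP3, was higher than in stem cells (log2 difference 1.08), and without CT4.0 library 1 a second gene, PFKP, was lower than in untreated cells (-1.15). In untreated cells against stem cells 11 were lower and 0 higher, beside 9.24% and 7.51% of all genes. LDHA, a lactate dehydrogenase subunit, had 483 and 446 TPM in CT4.0 cells, 34.5 and 35.9 TPM in untreated cells and 892 and 659 TPM in stem cells, a log2 difference of 3.68 (SE 0.21, adjusted p = 6.84e-12) from untreated cells. SLC16A3, a lactate exporter, had 135 and 95.9 TPM in CT4.0 cells, 3.46 and 4.04 TPM in untreated cells and 43.4 and 23.1 TPM in stem cells, and it was called higher in CT4.0 cells against both. PGK1, a glycolytic kinase, had 773 and 537 TPM in CT4.0 cells, 169 and 161 TPM in untreated cells and 714 and 411 TPM in stem cells. LDHA was thus between both other groups, and the libraries of PGK1 overlapped between CT4.0 and stem cells. Without CT4.0 library 1 the calls of ENO1, TPI1 and PKM in the direct contrast were lost, at log2 differences of 0.95, 0.95 and 0.97. HK1 and PFKP, a hexokinase and a phosphofructokinase, were the 2 genes that fell from stem cells, by 1.66 (SE 0.11) and 2.12 (SE 0.21) on the log2 scale.

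**Figure D4:**
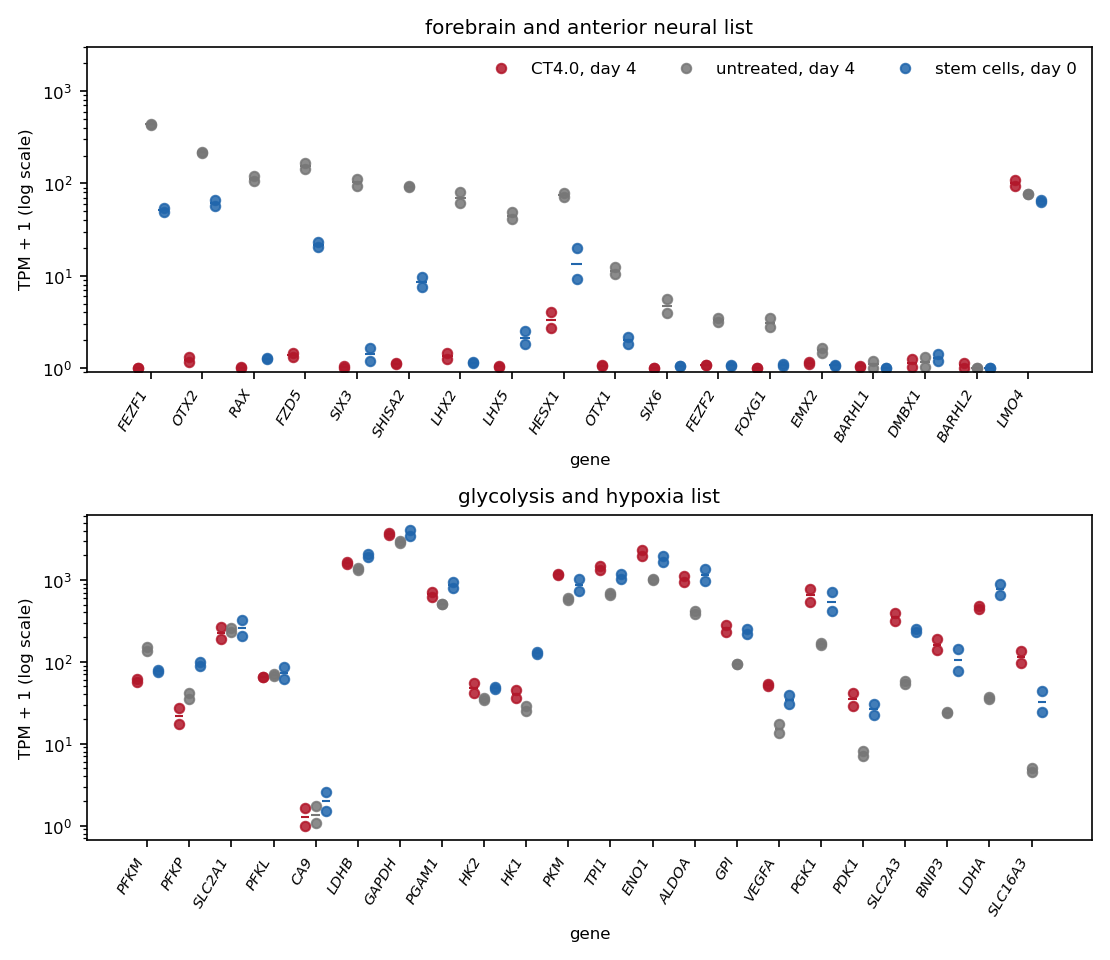
TPM + 1 (log axis) of the tested forebrain genes (upper panel) and glycolysis and hypoxia genes (lower panel) in CT4.0 day 4 cells, untreated day 4 cells and stem cells (points, 2 libraries a group; lines, mean on the log scale). FEZF1 and OTX2 stand near 0 only in CT4.0 cells, and LDHA and SLC16A3 stand lowest in untreated cells, at 34.5 and 3.46 TPM in the first library.

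Marker lists of other cell types that the cultures could hold differed in level. Beside each count of calls in this paragraph, 14.2% of all genes were called, 4.71% higher and 9.45% lower. The neuron list summed to 316 and 396 TPM in CT4.0 cells and to 185 and 193 TPM in stem cells. The placode and surface ectoderm list summed to 175 and 211 TPM in CT4.0 cells, against 429 and 447 TPM in stem cells. Of the 18 genes of primitive streak, endoderm and lateral mesoderm, all were below 1 TPM in both CT4.0 libraries, the list summed to 1.69 and 1.65 TPM there and to 55.6 and 60.3 TPM in stem cells, and EOMES, SOX17, GATA4 and FOXF1 were listed at 0 in both CT4.0 libraries. Of 6 tested, KDR and LHX1 were lower, and LHX1 lost its call without CT4.0 library 1 or 2 or stem cell library 1 (log2 differences -1.07, -1.07 and -0.38). KDR, a VEGF receptor, carried most of the stem cell sum, with 0.0241 and 0.0413 TPM in CT4.0 cells and 50.3 and 57.0 TPM in stem cells. The presomitic and paraxial mesoderm list summed to 51.7 and 73.4 TPM in CT4.0 cells and to 60.7 and 48.5 TPM in stem cells, with 2 of 11 tested genes higher, HES7 and DLL1, and 0 lower (1 higher without stem cell library 2). TBX6 was called lower without stem cell library 2 (log2 difference -1.10) and without CT4.0 library 2 (-1.03). Its committed mesoderm factors were low: TBX6 had 1.21 and 2.54 TPM in CT4.0 cells and 5.0 and 2.41 TPM in stem cells, and MSGN1, too low to test, had 0.206 and 1.85 TPM in CT4.0 cells and 0 in stem cells. The neural crest list summed to 138 and 170 TPM in CT4.0 cells and to 229 and 196 TPM in stem cells, with 3 of 16 genes higher and 4 lower. MSX1 and SNAI2, whose levels are given above, were among its higher genes. SOX10 was listed at 0 in both CT4.0 libraries, as was FOXD3, which had 9.45 and 9.70 TPM in stem cells. The placode and surface ectoderm list held 4 lower and 0 higher genes of 14 tested, and KRT7 had 0.0401 and 0.204 TPM in CT4.0 cells and 20.1 and 14.1 TPM in stem cells. Of 17 neuronal genes, 6 were higher and 0 lower, and 2 were lower without stem cell library 2. STMN2, a microtubule regulator, had 59.9 and 63.2 TPM in CT4.0 cells and 22.3 and 16.1 TPM in stem cells, a log2 difference of 1.65 (SE 0.20, adjusted p = 5.17e-07), and SNAP25, a synaptic protein, had 7.34 and 7.11 TPM against 0.412 and 0.417 TPM. TUBB3, neuronal tubulin, had 120 and 195 TPM in CT4.0 cells and 100 and 112 TPM in stem cells and was not called. The part of these cell types in the results was not tested.

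**Figure D5:**
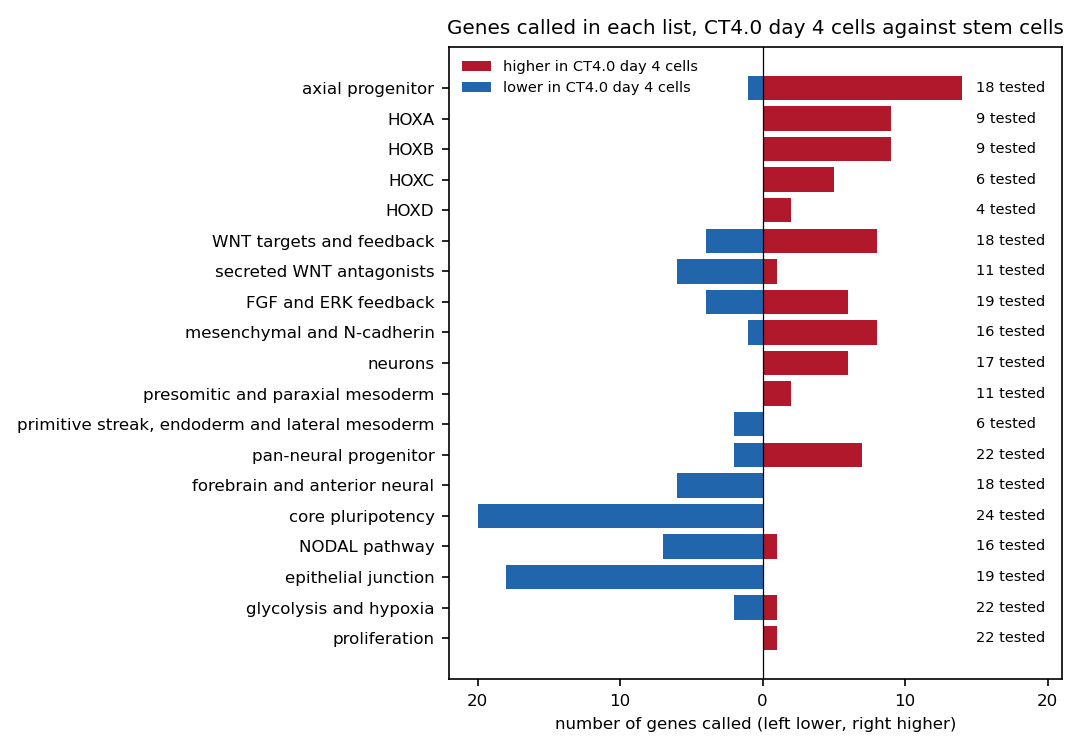
Number of genes called in each list, CT4.0 day 4 cells against stem cells (bars to the right, higher; to the left, lower; the number tested stands beside each). The core pluripotency list has 20 lower and the epithelial junction list 18 lower genes, and the axial progenitor list has 14 higher, beside 4.71% higher and 9.45% lower among all genes.

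The remaining lists differed in how far they moved, with few calls in proliferation and cholesterol synthesis and many in guidance genes and cadherins. Beside each list of this paragraph, 4.71% of all genes were higher and 9.45% lower. Of 22 proliferation genes, 1, CCND2, was higher (72.7 and 75.2 TPM in CT4.0 cells, 32.2 and 32.2 TPM in stem cells, log2 difference 1.17, SE 0.14, adjusted p = 4.18e-07) and 0 were lower. Of 22 cholesterol synthesis genes 1 was higher, MVK, and 4 were higher without stem cell library 2 and 2 without CT4.0 library 2. In the dorsal and ventral neural tube list 2 of 14 genes were higher and 0 lower, in the imprinted list 3 of 14 higher and 1 lower (2 lower without CT4.0 library 2, with PHLDA2 at -1.23), and in the extracellular matrix list 5 of 22 higher and 3 lower, of which 1 was lower without CT4.0 library 1. Among 9 DNA methylation genes DNMT3B was lower and UHRF1, which guides maintenance methylation, was higher, but not without stem cell library 1 (log2 difference 0.98). Among 18 stress and p53 target genes 4 were lower, BBC3, TRIB3, CHAC1 and PHLDA3, and 0 higher, but CDKN1A was higher without stem cell library 1 (log2 difference 1.07). BBC3, a cell death mediator, had 2.83 and 2.88 TPM in CT4.0 cells and 15.1 and 15.1 TPM in stem cells. SNRPN, an imprinted gene, had 258 and 251 TPM in CT4.0 cells and 881 and 805 TPM in stem cells, a log2 difference of -1.72 (SE 0.07, adjusted p = 1.52e-14). Cell surface genes of guidance were called in 12 of 21 cases, 8 higher and 4 lower. EPHA1, an Ephrin receptor, had 1.19 and 1.33 TPM in CT4.0 cells and 96.8 and 106 TPM in stem cells, a log2 difference of -5.50 (SE 0.36, adjusted p = 2.54e-11), whereas EPHA4 had 64.3 and 84.4 TPM against 7.36 and 9.36 TPM, a difference of 3.01 (SE 0.28, adjusted p = 1.43e-08). EFNB1, an Ephrin ligand, rose by 2.98 (SE 0.11, adjusted p = 3.28e-15) on the log2 scale. Among cadherins and protocadherins, 6 were higher and 6 lower of 18, with CDH6 at 32.7 and 23.1 TPM in CT4.0 cells and 0.784 and 0.950 TPM in stem cells, and PCDH1 at 5.55 and 7.36 TPM against 70.9 and 89.8 TPM. URAD (chr13:27977714-27988654, minus strand), which lies beside CDX2 on the same strand, had 154 and 152 TPM in CT4.0 cells and was listed at 0 in both stem cell libraries, and LY6G6D, which overlaps a readthrough gene, had 166 and 196 TPM against 0.385 and 0.941 TPM.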

How the data were processed

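Poly(A) RNA of H9 cells was sequenced by the authors, and a single table of TPM per gene was deposited. CASAVA 1.7, Salmon 0.8.2 and the build hg38 appear in the submitters' processing notes, with no order or settings. TPM keeps no depth, so the reads behind each value are unknown and no counting interval or floor is given. The fixed total means that a gene class with more RNA lowers all others. Of 58174 identifiers 57881 matched GENCODE release 29 for gene type and position.

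Samples were grouped by their labels. The 28221 genes that reached 1 TPM in 2 or more of the 38 libraries were tested. A model with 19 group means on log2(TPM + 1) was fitted to all 38 libraries in limma 3.58.1 under R 4.3.3 (eBayes with a trend, 19 residual degrees of freedom, two-sided), so groups of 2 share 1 estimate of the spread. Benjamini-Hochberg adjustment ran over all genes tested in a contrast. Alternatives were a pseudocount of 0.1, no filter, a filter within the groups compared, TMM scaling, rescaling without ribosomal protein and mitochondrial genes, both groups alone, protein-coding genes alone, a replicate block and leaving out each library.

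The comparison, its markers and the 38 gene lists were chosen with earlier results of these data known. The rule for named genes took the 6 markers, the 12 largest called changes in each direction against stem cells and the 6 against untreated cells among protein-coding genes, 4 called and 2 uncalled genes of each list, and every HOX gene. Other list members named in the text were chosen after their values were seen. A few list members are counted but not reported here by name. The labels name 2 HiSeq models without tying a library to either, so instruments could not be compared.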

Additional observations from a re-analysis of the deposited data

Results flagged for a closer look

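In 20 genes named by rule or in the lists, CT4.0 cells and untreated cells were called in opposite directions from the same stem cells, and the direct contrast of CT4.0 with untreated cells, which tests the difference of both, was itself called. When each pair of groups was fitted alone, the direct contrast was called in all 20, but 11 of the 20 lost the call of CT4.0 against stem cells (SLC16A3, DUSP6, COL5A2, CDH7, ROBO1, ROBO2, FZD8, HESX1, LHX5, SOX21 and FRZB, adjusted p between 0.0585 and 0.204). In that fit 5 of them, DUSP6, COL5A2, CDH7, ROBO2 and HESX1, also lost the call of untreated against stem cells (adjusted p between 0.0678 and 0.150). Over all tested genes 32 were higher in CT4.0 and lower in untreated cells than in stem cells and 45 were the reverse, each also called in the direct contrast.

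The genes that rose with CT4.0 and fell without it had these log2 differences between CT4.0 and untreated cells: NKX1-2 7.19, SLC16A3 4.60, SLIT2 3.99, DUSP6 2.68, COL5A2 2.35. NKX1-2 is a caudal epiblast factor, SLIT2 a guidance ligand and COL5A2 a fibrillar collagen. SLIT2 had 27.6 and 29 TPM in CT4.0 cells, 0.778 and 0.915 TPM in untreated cells and 3.73 and 3.34 TPM in stem cells. In DUSP6 the difference from stem cells was no longer called without stem cell library 1.

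The genes that fell with CT4.0 and rose without it had these log2 differences between CT4.0 and untreated cells: CDH7 -2.41, SFRP2 -2.46, ROBO2 -2.62, FZD8 -2.90, ROBO1 -3.07, HESX1 -4.49, POU3F1 -5.19, LHX5 -5.42, SOX21 -5.48, FRZB -5.65, SHISA2 -6.38, FZD5 -6.79, C6orf141 -7.04, OTX2 -7.46, FEZF1 -8.77. Head and anterior neural factors among them were OTX2, FEZF1, HESX1 and LHX5, while SOX21 and POU3F1 belong to the pan-neural progenitor list. WNT receptors and antagonists among them were FZD5, FZD8, FRZB, SFRP2 and SHISA2. ROBO1 and ROBO2 are receptors of SLIT proteins. SHISA2 had 0.124 and 0.0943 TPM in CT4.0 cells, 89.7 and 92.7 TPM in untreated cells and 6.62 and 8.71 TPM in stem cells. The difference from stem cells was not called for SOX21 without CT4.0 library 2 (-0.90) or stem cell library 1 (-0.93), for FRZB without CT4.0 library 2 (-0.90), and for LHX5 without CT4.0 library 1, CT4.0 library 2 or stem cell library 1 (-1.03, -1.01 and -0.78).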

How the results depend on the processing

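Counts of called genes ranged from 3850 to 4132 for CT4.0 against stem cells, from 2093 to 2448 for CT4.0 against untreated cells and from 4413 to 4928 for untreated against stem cells when a library was left out, beside 3996, 2341 and 4728 as reported. Fitting both groups alone, which leaves 2 libraries a group and fewer degrees of freedom, gave 2104, 1063 and 2851. A pseudocount of 0.1 gave 4787, 2942 and 5719, and TMM scaling 3990, 2142 and 4510. No gene called as reported was called in the opposite direction under any of these alternatives. Of the 557 named genes tested, 68 in CT4.0 against stem cells and 69 in CT4.0 against untreated cells lost their call when both groups were fitted alone. Those named in the text for CT4.0 against stem cells, with adjusted p between 0.0511 and 0.359 in that fit, were SP5, DLL1, LHX1, WNT4, NOTUM, CHRD, UHRF1, PFKP, SLC16A3, MVK, TRIB3, PHLDA3, COL5A2, MEIS1, MEIS2, SOX21, LHX5, HESX1, HOXA10, FZD8, BAMBI, FRZB, DUSP5, DUSP6, ETV4, LEFTY2, SMAD3, ID1, COL1A1, SOX10, CDH7, ROBO1 and ROBO2. In the direct contrast ESRG (adjusted p = 0.0816), ENO1 (0.0512), PGK1 (0.0532), MEIS1 (0.132) and MEIS2 (0.149) were among those that lost theirs. The labels do not pair replicate numbers: deviations of same-numbered libraries correlated at 0.0158 for CT4.0 and stem cells and at 0.0096 for CT4.0 and untreated cells, and with a replicate block the counts were 4001, 2350 and 4735. TPM gives no depth, so low values carry unknown counting error, and with 2 libraries a group the SE borrows from the other groups.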
